A study of Drosophila melanogaster with 12 samples.

Results

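The comparison described here set Kc167 cells treated with dsRNA against PTIP (3 arrays, replicates 1 to 3) beside Kc167 cells cultured alone (3 arrays, replicates 1 to 3). These are 6 of the 12 arrays of the series, taken by their labels, and each array measured 18769 probe sets other than controls, which were reduced to 11982 named genes by keeping the probe set with the highest mean level for each gene. Kc167 is a Drosophila melanogaster line of embryonic origin with the character of hemocytes, the blood cells of the fly. Cells were plated at 1000000 per well of a 6-well plate, dsRNA went in at 15 µg per well, serum was raised to 5% after 1 hour, and RNA was taken after 6 days. The other 6 arrays carried dsRNA against Pc and ph (3 arrays, called Pc/ph below) or against Pc, ph and PTIP (3 arrays, called Pc/ph+PTIP). Control cells are labelled as cells alone. The labels do not state whether they received an unrelated dsRNA, so loss of PTIP and the addition of dsRNA itself cannot be told apart in this comparison. Nor do they state whether the replicates of a group were separate cultures. A p-value here therefore reflects only how far these arrays vary, and that variation may be technical.

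PTIP is a BRCT-domain protein that sits in the MLL3/MLL4-type complex, the fly form of which contains the methyltransferase Trr and the demethylase Utx. Trr places methyl groups on lysine 4 of histone H3, a mark of active enhancers, and Utx removes methyl groups from lysine 27, the mark on which Polycomb repression rests. In Kc167 cells the study asked how PTIP bears on Polycomb-mediated repression.

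Replicate 1 of every group stood apart from replicates 2 and 3. The upper quartile of the array values was 8.65 in PTIP replicate 1 and 8.88 in control replicate 1, against 9.64 to 9.74 in replicates 2 and 3 of the same groups, and the same gap was present in the other groups. The replicate number was therefore kept as a block, and same-numbered arrays of PTIP and control cells deviated together from their group means, with correlations of 0.54 to 0.72 across probe sets. Among replicates 2 and 3, differently numbered arrays did so as well, at 0.61 (control 2 with PTIP 3) and 0.50 (control 3 with PTIP 2). The correlations thus set replicate 1 apart, but do not show that replicates 2 and 3 were matched by number. No 2 arrays held identical values. The 9 probe sets of Y-linked genes read between 4.05 and 5.57 over the 12 arrays. That range is used below as the floor under which a level cannot be read, since Kc167 is a female line and should lack these transcripts.

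Ptip itself, the targeted gene, read 7.44, 8.34 and 7.82 in PTIP replicates 1, 2 and 3, against 8.16, 8.52 and 8.26 in the same-numbered controls. All values are deposited RMA values on a log2 scale, on which a difference of 1 is a 2-fold change. The PTIP array was the lower of each pair, but the highest PTIP value overlapped the controls, and the fitted difference of −0.45 ± 0.21 (SE) missed the threshold (95% interval −0.92 to 0.016, adjusted p = 0.296). Pair by pair, the signal left was 60.6%, 87.8% and 73.5% of control. No protein level was measured. With Pc/ph dsRNA also present, Ptip read 7.15, 8.06 and 8.41 in Pc/ph+PTIP arrays, against 7.97, 8.01 and 8.29 in Pc/ph arrays. The arrays labelled Pc/ph+PTIP replicates 2 and 3 were thus slightly above their partners, and results that rest on them are given below with and without each.

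Utx was the only gene of the methyltransferase complexes that was called. Its level was 8.08, 9.43 and 9.02 in PTIP replicates 1, 2 and 3, against 8.93, 9.97 and 9.86 in controls, lower in every pair. The groups overlapped across replicates. The fit gave −0.74 ± 0.09, or 59.9% of control (adjusted p = 0.00194), and Utx was also lower when PTIP dsRNA was added to Pc/ph cells (−0.48, adjusted p = 0.0154). Of 16 measured genes for H3K4 methyltransferase complexes, Utx alone passed the threshold, which is 6.25% lower beside 4.68% of all genes. By limma 8 of the 16 had an unadjusted p under 0.05, as did 3424 of 18769 probe sets over the whole table. The enzyme gene trr differed by 0.22 ± 0.10 (adjusted p = 0.272), its partner Lpt by −0.03 and the PTIP partner Pa1 by 0.23. The coactivator gene Ncoa6 came close at −0.46 ± 0.12 (adjusted p = 0.0551) and was lower in each of the 3 pairs. The methyltransferase gene trx of a separate complex differed by −0.65, and ash2 and wds, whose products are core subunits of all these complexes, by −0.33 and 0.41, and none passed.

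**Figure D1:**
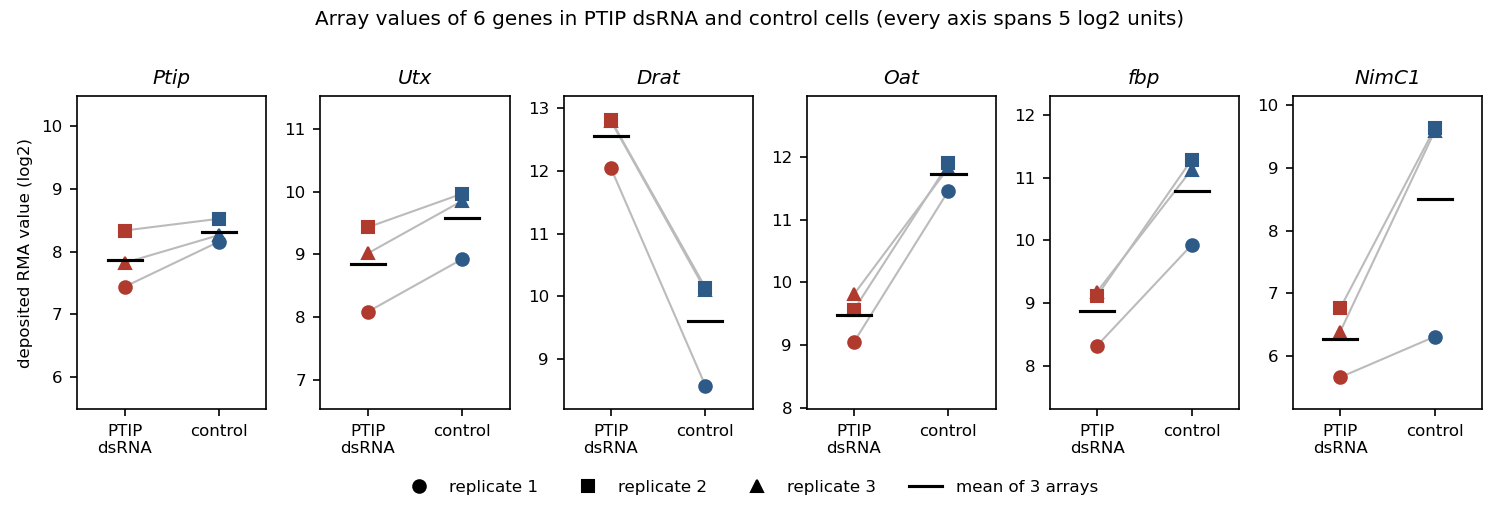
Deposited log2 RMA values of Ptip, Utx, Drat, Oat, fbp and NimC1 in each array, PTIP dsRNA cells at the left and controls at the right, with grey lines joining same-numbered replicates and black bars for the mean of 3 arrays. The PTIP and control values of Drat, Oat and fbp do not overlap, while those of Ptip and Utx do. NimC1 in replicate 1 differs by −0.65 where replicates 2 and 3 differ by −2.88 and −3.20.

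Polycomb group genes did not pass in either direction: 0 of 19 members were called, beside 8.14% of all genes. Their differences ran from −0.22 to 0.29. By limma 1 of the 19 had an unadjusted p under 0.05, as did 3424 of 18769 probe sets over the whole table. Pc, the chromodomain subunit, read 7.72, 9.77 and 9.63 in PTIP cells, against 8.38, 9.46 and 9.47 in controls. Its fitted difference of −0.06 changes sign with the scaling and with the arrays used. The 60 developmental regulators known as Polycomb targets, a list of Hox, homeobox and other patterning genes, had 1 call among them. That is 1.67% higher and 0% lower, beside 3.46% and 4.68% of all genes. In all 6 arrays 31 of the 60 sat at or below the Y-linked range, the median difference of the 60 was 0.07, and the differences ran from −0.38 to 1.01. Dfd, a Hox gene of the head segments, was the member called, with 6.67, 6.77 and 6.74 in PTIP cells against 6.17, 6.48 and 6.38 in controls (0.39 ± 0.10, adjusted p = 0.0397). For scale, Dfd was 1.44 higher in Pc/ph cells than in the same controls, and PTIP cells differed from Pc/ph cells by −1.05.

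Across the genes, 975 of 11982 were called at an adjusted p under 0.05, which is 8.14%. Of these 414 were higher in PTIP cells, 3.46% of all genes, and 561 were lower, 4.68%. The shares of gene lists given below are to be read beside these shares over all genes. A change of at least 2-fold was seen for 37 of the higher genes (0.309%) and 171 of the lower genes (1.43%). The median called difference was 0.48 for higher genes and −0.72 for lower genes, and all 975 had the same sign in the 3 pairs. Over all 18769 probe sets 1224 were called (6.52%), 511 higher (2.72%) and 713 lower (3.8%), a split that became 971 and 816 after quantile normalization and 238 and 613 after median centring. Leaving out PTIP replicate 3 brought the 1224 down to 475, and leaving out controls 1, 2 or 3 brought them to 568, 731 or 563. It was 51 with no replicate block, 347 when these 6 arrays were fitted alone, and 2566 from replicates 2 and 3, with 1434 higher and 1132 lower.

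Drat had the largest rise. This gene encodes a protein with an alcohol dehydrogenase domain that has been tied to cell death in flies. It read 12.05, 12.82 and 12.80 in PTIP cells, against 8.57, 10.14 and 10.10 in controls, so the lowest PTIP array was well above the highest control. The rise was 2.95 ± 0.14, or 7.75-fold (adjusted p = 1.46e-05).

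The next genes by size serve signalling, cuticle and metabolism. The Ras-association gene rau, which in the fly eye sustains receptor tyrosine kinase signalling, read 8.47, 8.43 and 8.68 in PTIP cells, against 6.67, 6.38 and 6.27 in controls (2.08 ± 0.24, adjusted p = 0.00143). Phk-3, a small secreted pherokine, rose by 2.06 and the decarboxylase-family gene amd, needed for cuticle, by 1.88. Gnmt, which consumes S-adenosylmethionine by methylating glycine, was already abundant and rose further, to 13.33, 12.82 and 12.92 in PTIP cells, against 11.39, 11.28 and 11.12 in controls. Its rise was 1.76 ± 0.15 (adjusted p = 0.000507). The glycosyltransferase gene fng, which modifies Notch, read 7.53, 7.70 and 7.73 in PTIP cells, against 6.10, 6.28 and 6.42 in controls (1.39 ± 0.28, adjusted p = 0.0175). The remaining large rises were Cyp12d1-d (1.81), ATPsynepsilonL (1.69), the methionine sulfoxide reductase gene MsrA (1.36), tut (1.25), the Krüppel-like factor gene cbt (1.23), Lac (1.20), Mnr (1.18), the threonine dehydrogenase gene Tdh (1.14) and Cyp6d2 (1.11). Tdh and Cyp6d2 rested mainly on replicates 2 and 3, where the pairs differed by at least 1.12, against 0.21 and 0.39 in replicate 1.

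**Figure D2:**
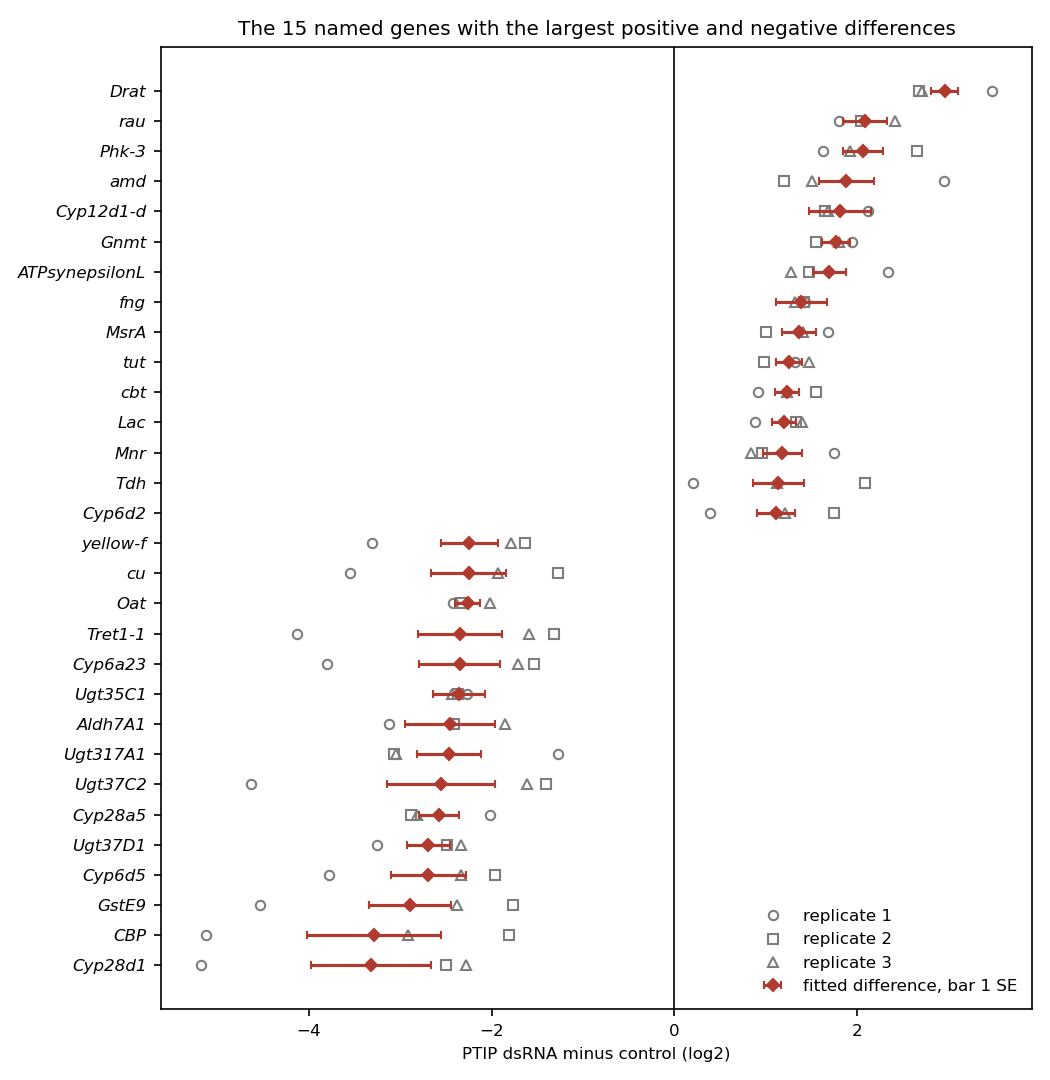
Differences between PTIP dsRNA and control cells (log2) for the 15 named genes with the largest rise, at the top, and the 15 with the largest fall, at the bottom. Open symbols are the 3 same-numbered pairs and filled diamonds the fitted difference with 1 SE. Every open symbol lies on the side of 0 of its diamond, and for 9 of the falling genes, among them Cyp28d1, CBP and Ugt37C2, the replicate 1 pair lies more than 1 log2 unit beyond the other two.

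Enzymes that modify and clear foreign and internal small molecules made up 9 of the 15 largest falls among named genes. Of these 4 were cytochrome P450 genes, which oxidise substrates, 4 were UDP-glycosyltransferase genes, which attach sugars, and 1 was a glutathione transferase gene. Cyp28d1 fell most, to 7.70, 9.18 and 8.91 in PTIP cells, against 12.88, 11.68 and 11.18 in controls. The groups were far apart, but replicate 1 differed by −5.18 where the other pairs differed by −2.50 and −2.28, and the fitted −3.32 has an SE of 0.65 (adjusted p = 0.0163). Cyp28a5 had a steadier fall, with 6.07, 7.15 and 6.89 in PTIP cells against 8.09, 10.03 and 9.71 in controls (−2.57 ± 0.22, adjusted p = 0.000507).

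Among P450 genes the share called lower was above that of all genes, and the share called higher was close to it. Of 81 measured members 12 were called lower and 3 higher, or 14.8% and 3.70%, beside 4.68% and 3.46% of all genes, and the family median was −0.01 beside 0.03 over all genes. Many members sat near the floor: only 44 of the 81 had a mean above the Y-linked range. The lower members included Cyp6d5 (−2.69), Cyp6a23 (−2.35), Cyp4p1 (−2.23), Cyp9c1 (−2.21), Cyp12a5 (−2.13) and Cyp4e2 (−1.47). The higher ones were the mitochondrial-type Cyp12d1-d, Cyp6d2 and Cyp18a1, the enzyme that inactivates ecdysone, which differed by 0.75. Thus Cyp12d1-d rose by 1.81 while Cyp12a5 and Cyp12e1 of the same family fell by 2.13 and 1.17. Without control replicate 1 the count of lower members was 6, and the count of higher members was 1 without PTIP replicate 3 or any 1 of the controls.

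UDP-glycosyltransferase genes were called in 1 direction. Of 35 measured members 6 were lower (17.1%) and 0 higher, beside 4.68% and 3.46% of all genes. The family median was −0.03, with 19 negative and 16 positive differences, and 18 of the 35 had a mean above the Y-linked range. The count of lower members was 4 without PTIP replicate 1 or 3 or control replicate 2 or 3. Ugt35C1 was the most even of them, with 7.22, 7.53 and 7.26 in PTIP cells against 9.49, 9.89 and 9.70 in controls, a fall of nearly the same size in each pair (−2.36 ± 0.28, adjusted p = 0.00168). Ugt37D1 read 9.88, 10.27 and 10.29 in PTIP cells, against 13.13, 12.76 and 12.62 in controls (−2.69 ± 0.24, adjusted p = 0.000507). Ugt317A1 (−2.46), Ugt302C1 (−2.02) and Ugt35A1 (−1.01) also fell, and Ugt37C2 (−2.55 ± 0.59) depended most on replicate 1, where the pair differed by −4.63.

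Glutathione transferases join glutathione to electrophiles. Of 35 measured members 9 fell (25.7%), 1 rose (2.86%) and the median was −0.18. Among 13 genes of the epsilon class 6 fell, 0 rose and 11 had a negative difference, while among 11 genes of the delta class 0 fell, 1 rose and 7 had a negative difference, a contrast between classes that was not tested. GstE9 read 7.71, 10.34 and 9.66 in PTIP cells, against 12.24, 12.11 and 12.04 in controls (−2.89 ± 0.45, adjusted p = 0.00568). GstE11 fell by 1.96, the microsomal Mgstl by 1.33 and GstE7 by 0.94, whereas GstD7 rose by 1.07 ± 0.21 (adjusted p = 0.0152). A second, dim probe set of Mgstl, with a mean of 5.47, differed by 0.10 and was not called. The count of lower members was 5 without PTIP replicate 3 and 4 without each control in turn.

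Some genes of redox pathways changed. Of 23 measured genes of the thioredoxin, glutathione and CncC pathways 5 fell (21.7%) and 1 rose (4.35%), beside 4.68% and 3.46% of all genes. Malic enzyme (Men), a source of NADPH, fell by 1.06, catalase (Cat) by 0.92, the autophagy adaptor ref(2)P by 0.82, the ferritin gene Fer2LCH by 0.61 and Gtpx by 0.43. The stress regulator gene cnc differed by −0.08 (adjusted p = 0.784) and its inhibitor Keap1 by 0.07 (adjusted p = 0.758). Without control replicate 1 the count of lower members was 3. Among 16 genes for metal handling 1 fell and 1 rose (6.25% each way), near the shares over all genes. These were the metal-response factor gene MTF-1 (−0.66) and the zinc transporter gene foi (0.39).

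Amino acid breakdown changed in both directions. Of 39 measured genes 9 fell (23.1%) and 4 rose (10.3%), with a median of −0.06. Oat, which turns ornithine towards glutamate and proline, fell by much the same amount in each pair, with 9.05, 9.56 and 9.81 in PTIP cells against 11.46, 11.90 and 11.83 in controls. Its difference was −2.26 ± 0.14, or 20.9% of control (adjusted p = 4.9e-05), and the groups did not overlap.

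Some enzymes of lysine and branched-chain amino acid breakdown fell. Bcat, the branched-chain aminotransferase, read 8.96, 9.72 and 9.63 in PTIP cells, against 11.44, 11.53 and 11.28 in controls (−1.98 ± 0.25, adjusted p = 0.00206). Aldh7A1, which acts on the lysine route in mammals, fell by 2.46. LKRSDH, the first enzyme of that route, fell by 1.44, the leucine-route gene Mccc2 by 1.14 (its partner Mccc1 differed by −0.16 and was not called) and the proline-synthesis gene P5cr-2 by 1.14. The folate enzyme gene Nmdmc fell by 1.02. The risers were Gnmt, Tdh, Gs1 and the aspartate aminotransferase gene Got2 (0.61). The paralogous glutamine synthetase genes moved apart: Gs1, the mitochondrial form, rose by 0.86 ± 0.15 (adjusted p = 0.0102) and Gs2, the cytosolic form, fell by 0.68 ± 0.15 (adjusted p = 0.0221). The count of risers was 2 without PTIP replicate 3 and 2 without control replicate 2 or 3.

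Carbohydrate genes had the highest share of falls among the lists examined. Of 32 measured genes for glycolysis, gluconeogenesis, glycogen and trehalose 14 fell (43.8%) and 0 rose, 26 had a negative difference, and the median was −0.46 beside 0.03 over all genes. The median was −0.80 in the replicate 1 pair and −0.28 and −0.30 in the others. The falls covered sugar uptake, storage, breakdown and synthesis. Tret1-1, the trehalose transporter, fell by 2.35 ± 0.46, with −4.13 in replicate 1 and −1.32 and −1.59 in replicates 2 and 3. Treh, which splits trehalose into glucose, read 8.91, 10.54 and 10.33 in PTIP cells, against 11.16, 11.72 and 11.66 in controls (−1.59 ± 0.17, adjusted p = 0.00118).

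Of the enzymes specific to gluconeogenesis, fbp and Pepck1 fell. The fructose bisphosphatase gene fbp read 8.32, 9.11 and 9.18 in PTIP cells, against 9.93, 11.29 and 11.13 in controls, a fall to 26.6% of control (−1.91 ± 0.15, adjusted p = 0.00032). Pepck1 read 9.93, 10.75 and 10.60 in PTIP cells, against 11.75, 12.66 and 12.64 in controls (−1.92 ± 0.37, adjusted p = 0.015). Its paralog Pepck2, at 5.70 or below in all 6 arrays and so near the floor, differed by −0.34 and was not called (adjusted p = 0.117). The opposing glycolytic enzyme gene Pfk fell as well, by 1.45 ± 0.19. Hex-A fell by 1.09, Pgi by 0.89, Tpi by 0.85 and Eno by 0.69. In the glycogen branch Pgm1 fell by 1.82, glycogen phosphorylase (Glyp) by 0.98, the branching enzyme AGBE by 0.66 and glycogen synthase (Glys) by 0.48, and the maltase gene Mal-A5 fell by 0.49. Without control replicate 3 the count of falls was 8.

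The same genes had other counts in the other comparisons. Pc/ph cells were compared with the same controls, so the values stand side by side only: in Pc/ph against control 8 of the 32 were lower and 0 higher, with a median of −0.39, beside 1.08% lower and 0.918% higher over all genes. Set directly against Pc/ph cells, PTIP cells had 5 members lower and 3 higher, with a median of −0.04. Pepck1 was the exception by size, at −3.31 in PTIP against Pc/ph cells (adjusted p = 0.00063). When PTIP dsRNA was added to Pc/ph cells, 2 members rose, 2 fell and the median was −0.01.

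**Figure D3:**
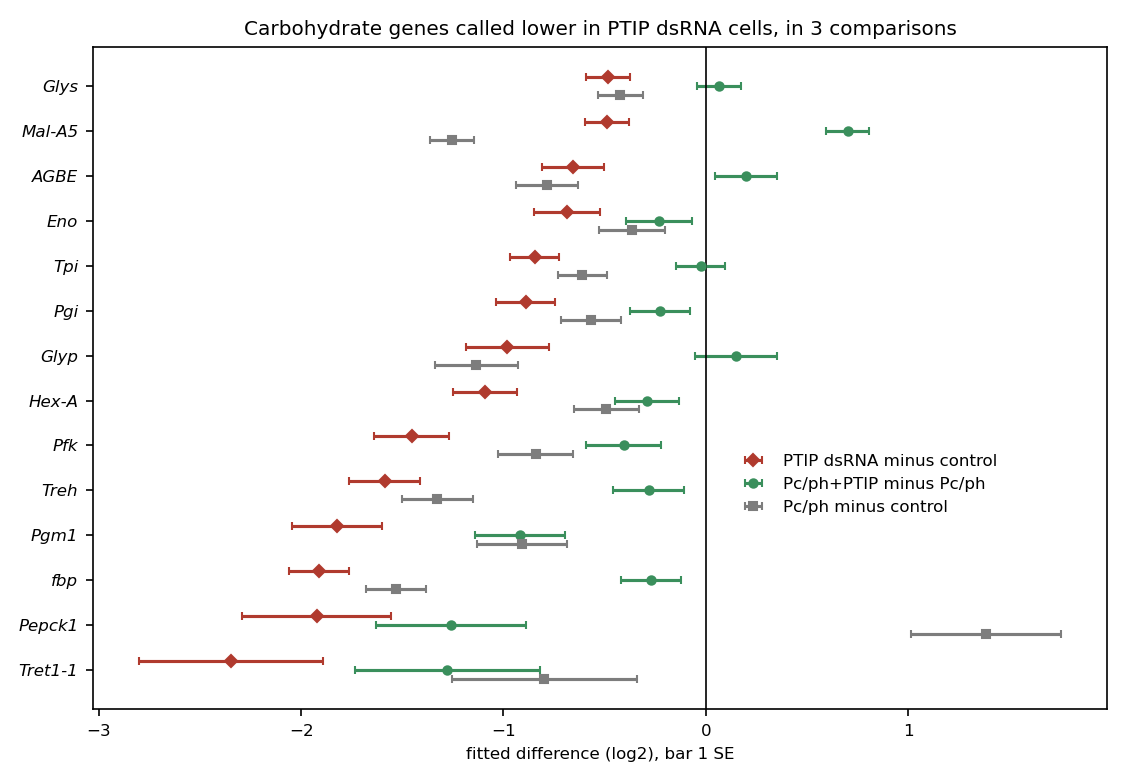
Fitted differences (log2, bar 1 SE) of the 14 carbohydrate genes called lower in PTIP dsRNA cells, with PTIP minus control as red diamonds, Pc/ph+PTIP minus Pc/ph as green circles and Pc/ph minus control as grey squares. All red diamonds lie below 0, most green circles lie nearer to 0, and the grey square of Pepck1 lies at 1.39 on the other side.

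Aminoacyl-tRNA synthetases charge tRNAs for translation. Of 32 measured genes 7 fell (21.9%) and 0 rose, 28 had a negative difference and the median was −0.36. IleRS read 11.62, 12.44 and 12.24 in PTIP cells, against 12.90, 13.09 and 12.98 in controls (−0.89 ± 0.16, adjusted p = 0.0112). ValRS fell by 0.71, GlyRS by 0.68, LeuRS by 0.57 and GluProRS by 0.39. Among 18 cytosolic enzymes 17 differences were negative, with a median of −0.53. Among 14 mitochondrial enzymes 11 were negative, with a median of −0.17, and CysRS-m and AspRS-m fell. The count was 3 without PTIP replicate 1, 2 without PTIP replicate 3, and 3 without control replicate 1 or 2.

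Among 38 lipid genes 4 fell (10.5%, beside 4.68% of all genes) and 0 rose, namely the mevalonate-route gene Hmgs (−1.05), the thiolase gene yip2 (−0.83), the lipase gene bmm (−0.67) and Lpin (−0.64). That count was 2 without PTIP replicate 1, 1 without PTIP replicate 3 and 2 without control replicate 2 or 3. Of 72 oxidative phosphorylation genes 2 fell (2.78%) and 1 rose (1.39%), and the list median was 0.05. The riser was ATPsynepsilonL, a paralog of the ATP synthase epsilon subunit. Of 46 V-ATPase and lysosome genes 1 was called, Vha100-2 at −0.68, and of 40 proteasome genes 1, Prosalpha4 at 0.30.

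**Figure D4:**
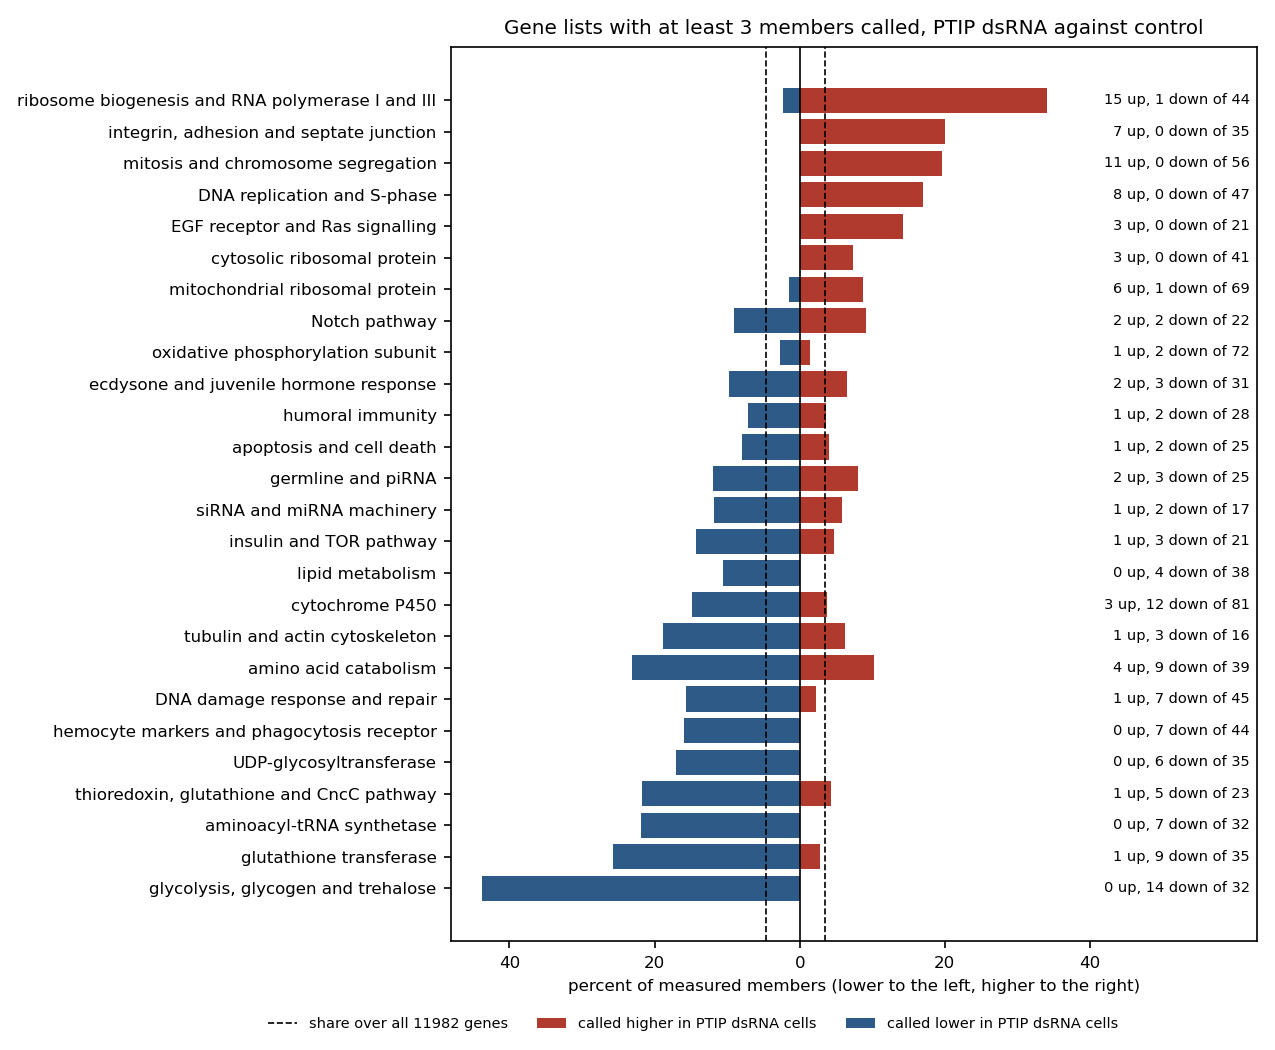
Percent of measured members called higher (red, to the right) and lower (blue, to the left) in PTIP dsRNA against control cells, for lists with at least 3 members called in all. Dashed lines mark the shares over all genes, 3.46% and 4.68%, and the counts stand at the right. The carbohydrate list reaches 43.8% lower with 0 higher, and the ribosome biogenesis list 34.1% higher with 2.27% lower.

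Of 44 hemocyte and phagocytosis genes 7 fell (15.9%) and 0 rose, while the widely used hemocyte markers Hml, srp and He did not pass. Hml averaged 12.7 in PTIP cells and 12.9 in controls, the GATA factor gene srp 12.02 and 11.98, and He 11.4 and 11.5, all at the high levels of a hemocyte line and none called. The crystal-cell markers lz and PPO1 lay at 5.62 or below in all 6 arrays, near the Y-linked range. NimC1, a receptor for bacteria on plasmatocytes, read 5.66, 6.76 and 6.38 in PTIP cells, against 6.31, 9.64 and 9.59 in controls (−2.24 ± 0.51, adjusted p = 0.0279). Its control in replicate 1 was itself low and lay below the PTIP values of replicates 2 and 3, so the groups overlapped.

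The receptor gene eater was separated in all pairs. It read 8.68, 9.51 and 8.80 in PTIP cells, against 9.77, 11.18 and 11.10 in controls (−1.68 ± 0.23, adjusted p = 0.00324). Glt, a secreted glycoprotein of hemocytes, fell by 1.70, the scavenger receptor gene Sr-CI by 1.20 and the apoptotic-cell receptor gene crq by 0.70. Fer2LCH, also counted above among the redox genes, fell by 0.61 and the GATA cofactor gene ush by 0.48. Among 20 basement membrane genes Glt and SPARC (−0.51) fell (10%) and 0 rose, while the collagen genes Col4a1 and vkg differed by −0.09 and −0.19 without passing. These are bulk RNA values, so fewer cells of a type and less RNA per cell cannot be told apart. The count of hemocyte genes was 4 without PTIP replicate 3 and 3 without control replicate 2 or 3.

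Markers of other tissues were mostly at the floor. Of 14 neuronal, 13 muscle, 10 fat body and 9 gut markers, 4, 5, 3 and 3 had a mean above the Y-linked range. The array mean over the neuronal list ran from 5.85 to 6.06 in PTIP cells and from 5.56 to 6.07 in controls, and for muscle, fat body and gut lists the PTIP arrays ran from 5.41 to 5.71 and the controls from 5.27 to 5.86. The members called were amd, which also serves cuticle, and the muscle gene bt, at −0.92 from a low level. The neuronal gene elav was present at 7.85 in PTIP cells and 8.47 in controls, without passing (−0.62, adjusted p = 0.0865).

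Ribosome production genes had the highest share of rises among the lists examined. Of 44 measured genes for ribosome biogenesis and RNA polymerases I and III 15 rose (34.1%), 1 fell and 36 had a positive difference, with a median of 0.21. The rises were small. The nucleolar protein gene mbm, whose product acts in making the small ribosomal subunit, read 11.89, 11.99 and 12.06 in PTIP cells, against 11.11, 11.72 and 11.56 in controls (0.52 ± 0.10, adjusted p = 0.0153). The groups did not overlap, but the replicate 1 pair differed by 0.78 and the others by 0.27 and 0.50. The rRNA methyltransferase gene Fib rose by 0.48, the pseudouridine synthase gene Nop60B by 0.54, the helicase gene pit by 0.58, peng by 0.65 and Nop56, a core protein of the snoRNPs that methylate rRNA, by 0.64. The polymerase I subunit genes Polr1E and Polr1F rose by 0.51 and 0.45. The faller was Bdp1, part of the polymerase III factor TFIIIB, at −0.71.

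That count rested on single arrays. It was 5 without PTIP replicate 1, 0 without PTIP replicate 3, 1 without control replicate 1 and 1 without control replicate 3. It was 11 from replicates 2 and 3 alone. Of 41 cytosolic ribosomal protein genes 3 rose (7.32%, beside 3.46% of all genes), namely RpLP0-like and the paralogs RpS5b and RpS10a, and the median was 0.06. That count of 3 was 1 without PTIP replicate 2 and 0 without PTIP replicate 3 or control replicate 3. Of 69 mitochondrial ribosomal protein genes 6 rose (8.70%), by 0.36 to 0.71, and mRpL28 fell by 0.90. That count of 6 was 2 without PTIP replicate 3 and 3 without control replicate 1 or 3.

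Some DNA replication and mitosis genes rose, and none was called lower. Of 47 replication genes 8 rose (17.0%), with 41 positive differences and a median of 0.23. Mcm6, a subunit of the replicative helicase, read 12.23, 12.68 and 12.77 in PTIP cells, against 11.69, 12.20 and 12.06 in controls (0.58 ± 0.11, adjusted p = 0.0166). The 6 MCM genes all had positive differences, with a median of 0.47, and Mcm3 and Mcm5 were also called. The other risers were gnu (1.08), which controls the early embryonic cycles, the primase gene Prim1 (0.90), Sld5 (0.49), E2f2 (0.47) and Cdk4 (0.41). The list median was 0.02 in the replicate 1 pair and 0.32 and 0.44 in the others. The count was 14 without PTIP replicate 1, 2 without PTIP replicate 2 or 3, 3 without control replicate 1 and 2 without control replicate 3.

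Of 56 mitosis genes 11 rose (19.6%) and 0 fell, with a median of 0.18. Cyclin B (CycB) read 11.42, 12.37 and 12.42 in PTIP cells, against 11.14, 11.80 and 11.79 in controls, higher in each pair although the groups overlapped across replicates (0.49 ± 0.09, adjusted p = 0.0108). The centriole kinase gene SAK rose by 0.69, the chromosomal passenger gene borr by 0.52, the cytokinesis gene tum by 0.53, the kinesin gene ncd by 0.47 and the anaphase activator gene fzy by 0.34. Spc25, Nuf2, Ndc80 and Kmn1 of the outer kinetochore rose by 0.50, 0.49, 0.33 and 0.35. The count was 4 without PTIP replicate 2, 3 without PTIP replicate 3, and 4, 7 and 3 without controls 1, 2 and 3.

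DNA repair genes had more falls than rises. Of 45 measured 7 fell (15.6%) and 1 rose, and the median was −0.10. Translesion and related polymerases led the falls. PolZ1, the catalytic subunit of polymerase zeta, read 9.39, 10.25 and 9.75 in PTIP cells, against 10.37, 10.75 and 10.56 in controls (−0.76 ± 0.13, adjusted p = 0.00845). Its partner PolZ2 fell by 0.69, PolI by 0.61, the end-joining polymerase gene PolQ by 0.53, rad50 by 0.52, Brca2 by 0.44 and the TFIIH helicase gene hay by 0.34. Corp, a target and regulator of p53, rose by 1.09. The count of falls was 3 without PTIP replicate 1, 1 without PTIP replicate 3, and 1, 3 and 2 without controls 1, 2 and 3.

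Of 25 measured cell death genes 2 fell (8%), and 1, Drat, rose (4%), beside 4.68% and 3.46% of all genes. The TNF gene egr read 6.55, 7.56 and 7.24 in PTIP cells, against 9.61, 8.73 and 8.32 in controls (−1.77 ± 0.36, adjusted p = 0.018), and the caspase gene Strica fell by 0.77. Among 18 heat shock and chaperone genes Hsp26 (−0.50) and Hsp27 (−0.47) fell (11.1%) and 0 rose.

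Of 17 measured genes of RNA silencing, on which the knockdown itself relies, 2 fell (11.8%) and 1 rose (5.88%). Over all genes 4.68% fell and 3.46% rose. Dcr-2, which cuts dsRNA into siRNAs, read 8.71, 10.19 and 9.53 in PTIP cells, against 10.02, 10.57 and 10.51 in controls, lower in each pair although the groups overlapped (−0.89 ± 0.17, adjusted p = 0.0132). The other was Sr-CI, a receptor that takes up dsRNA in fly cells and is also counted above among the phagocytosis genes. Tudor-SN, an RNA-binding nuclease, rose by 0.33. In Pc/ph cells Dcr-2 was 0.21 from control (adjusted p = 0.857), and the cause of its fall in PTIP cells was not tested.

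Of 35 adhesion and septate junction genes 7 rose (20%) and 0 fell, while 13 had a negative difference and the median was 0.14. Lac, an immunoglobulin-domain protein of septate junctions, read 11.75, 12.23 and 12.11 in PTIP cells, against 10.87, 10.91 and 10.71 in controls, with no overlap (1.20 ± 0.13, adjusted p = 0.0012). The Ly6 proteins encoded by crok and cold help to assemble the same junctions, and their genes rose by 0.89 and 0.58. The E-cadherin gene shg rose by 0.50, the sodium pump subunit gene nrv2 by 0.48, Tsf2 by 0.46 and the integrin gene if by 0.43, the last at a level near the floor. The count was 4 without PTIP replicate 3 and 4, 3 and 4 without controls 1, 2 and 3.

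Signalling pathways had scattered changes, given here beside 3.46% higher and 4.68% lower over all genes. In the Notch list of 22 genes fng and O-fut1 (0.48), which both glycosylate Notch, rose (9.09%). Gp150 and wdp fell by 1.08 and 1.58 (9.09%), wdp into the Y-linked range in PTIP cells. In the EGF receptor list of 21 genes rau, S (Star, 0.37) and Dsor1 (MEK, 0.32) rose (14.3%, beside 3.46% of all genes) and 0 fell, a count that was 1 without PTIP replicate 2 or any 1 of the controls. In the JAK/STAT list of 12 genes the receptor gene dome rose by 0.49 (8.33% higher). The gene et, which encodes its inhibitory relative, fell by 1.44 ± 0.18 (adjusted p = 0.00221, 8.33% lower). ImpL2, a secreted insulin-binding inhibitor, was among the most abundant transcripts and read 12.46, 12.86 and 12.05 in PTIP cells, against 14.25, 13.90 and 13.74 in controls (−1.50 ± 0.16, adjusted p = 0.00111). The hypoxia factor gene sima fell by 0.84 and REPTOR by 0.69, while Sesn rose by 0.76. With ImpL2, 14.3% of 21 insulin and TOR genes were lower and 4.76% higher. Of 31 ecdysone and juvenile hormone genes MsrA and Cyp18a1 rose (6.45%), and JhI-26 (−1.63), ImpL2 and Kr-h1 (−0.71) fell (9.68%). Of 28 humoral immunity genes the amidase gene PGRP-LB, which degrades peptidoglycan, rose by 0.81 (3.57%), whereas GNBP2 (−1.67) and the sensor gene PGRP-LE (−0.61) fell (7.14%).

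In the fly germline tut, bam and bgcn encode proteins that act together as a translational repressor. Here tut, one of the 15 largest rises, read 9.32, 9.35 and 9.56 in PTIP cells, against 8.01, 8.37 and 8.09 in controls (1.25 ± 0.14, adjusted p = 0.00118). Its partner bam rose by 0.83 and bgcn fell by 0.61. The piRNA genes aub and rhi fell by 0.57 and 0.60, rhi from a level close to the floor. Of 25 germline genes measured 2 rose (8%) and 3 fell (12%), beside 3.46% and 4.68% of all genes. The count of falls was 1 without PTIP replicate 3 or control replicate 2, and 0 without control replicate 3. Cytoskeletal calls were ringer (−1.84), spir (−1.66), cib (−0.53) and the stathmin gene stai (0.61) among 16 genes, or 18.8% lower and 6.25% higher. That count of falls was 1 without PTIP replicate 3, control replicate 1 or control replicate 3. Of 25 neuropeptide and receptor genes the receptor gene Dh44-R2 fell by 1.83 (4% lower) and 0 rose. The large falls outside the lists were CBP, a sarcoplasmic-type calcium-binding protein (−3.28 ± 0.73), cu (−2.25) and the melanization gene yellow-f (−2.25).

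Called genes were spread over the genome, with 3.03% to 3.85% of measured genes higher and 4.22% to 5.61% lower on each of the arms 2L, 2R, 3L, 3R and X. On the small chromosome 4, 5 of 65 genes were lower and 1 was higher. Measured genes were also put in chromosome order, so a pair can have unmeasured genes between its members. Among 11882 such consecutive pairs, 64 were both lower, 19 both higher and 44 opposite. Over all genes 4.68% were lower and 3.46% higher, and whether neighbours were called together more often than other genes was not tested. NimC1 and Cyp28a5 formed the pair with the deepest shared fall (−2.24 and −2.57). Gp150 and wdp (−1.08 and −1.58), Ugt37C2 and CG17928 (−2.55 and −1.93), sprt and CG30022 (−2.02 and −2.21), and yellow-f and yellow-f2 (−2.25 and −1.11) were further lower pairs, chosen for mention after their values were seen.

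PTIP dsRNA was also given together with Pc/ph dsRNA, and Pc/ph+PTIP cells were set against Pc/ph cells. The 6 arrays of that difference are other arrays than those of PTIP against control, although all 12 share the replicate block and the estimate of spread. Pc itself read 7.24, 8.86 and 8.98 in Pc/ph+PTIP arrays, against 6.18, 6.96 and 7.18 in Pc/ph arrays, higher in every pair (1.59 ± 0.20, adjusted p = 0.00208). The level of Pc RNA thus differed along with the addition of PTIP dsRNA, and the 2 cannot be told apart in this comparison or in the test of the difference between effects. Of the 414 genes higher in PTIP against control, 409 (98.8%) were also on the higher side in Pc/ph+PTIP against Pc/ph, and 239 (57.7%) were called higher there. Of the 561 lower genes 526 (93.8%) were on the lower side and 243 (43.3%) were called lower. Over all 11982 genes 69.7% had the same sign in both comparisons, and the second comparison called 848 genes (7.08%), with 3.81% of genes higher and 3.27% lower. Only 1 of the higher and 4 of the lower genes were called the other way. The median difference of the 414 genes was 0.42 there, and that of the 561 genes −0.48, while the values of the 975 genes in the 2 comparisons correlated at r = 0.88. That r describes genes chosen in the first comparison, which share array design, scaling and replicate block with the second. Without Pc/ph+PTIP replicate 3 the same-sign counts were 406 and 528 and the called counts 92 and 93, and without Pc/ph+PTIP replicate 2 they were 409 and 526, and 98 and 88.

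Several of the leading genes were called in both settings. For Oat the difference was −2.0 in Pc/ph+PTIP against Pc/ph, for Gnmt 1.92, for Cyp28a5 −3.07, for Ugt317A1 −2.50, for eater −2.27 and for rau 3.20, and each of these was called. Of the 60 regulators known as Polycomb targets 1 was higher and 11 were lower in that comparison, beside 1 higher and 0 lower in PTIP against control. The test of the difference between effects called 7 of the 60. Without Pc/ph+PTIP replicate 2 or 3 the count of 11 lower genes became 7 in each case. The count for the difference between effects became 5 without replicate 2 and 3 without replicate 3. For example rib, a transcription factor gene of tracheal development, read 8.28, 7.98 and 7.63 in Pc/ph+PTIP arrays, against 9.92, 10.11 and 10.12 in Pc/ph arrays (−2.09 ± 0.17, adjusted p = 0.000174), and PTIP cells differed from control cells by 0.33 without passing. By list, ribosome biogenesis had 17 genes higher and 0 lower in that comparison, UDP-glycosyltransferases 0 and 6, glutathione transferases 4 and 7, P450 genes 3 and 7, and hemocyte genes 1 and 8. Carbohydrate genes had 2 and 2, and DNA repair genes 3 and 0. The test of the difference between effects called 2 of the carbohydrate genes and 0 of the DNA repair genes. Of the carbohydrate genes it called 1 without Pc/ph+PTIP replicate 2 and 0 without Pc/ph+PTIP replicate 3. Some members of these lists stayed on the lower side, such as Pepck1 at −1.26 and PolZ1 at −0.33. Without Pc/ph+PTIP replicate 2 or 3 the ribosome biogenesis count was 3 higher and the P450 count 3 lower, the hemocyte count was 4 lower, and the glutathione transferase count was 0 and 1 lower.

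**Figure D5:**
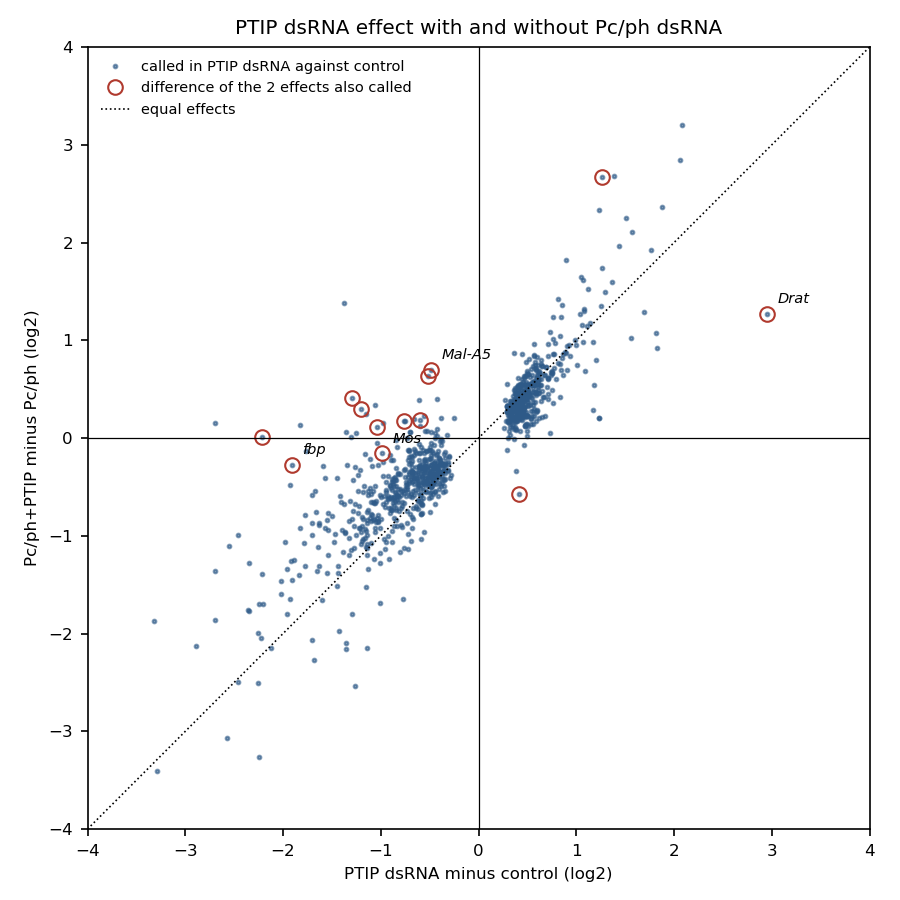
Each point is 1 of the 975 genes called in PTIP dsRNA against control cells, with that log2 difference on the horizontal axis and the log2 difference of Pc/ph+PTIP against Pc/ph on the vertical axis. The dotted line marks equal effects and open circles mark the 13 genes whose 2 effects differ by the interaction test. Most points lie in the lower left and upper right quadrants, and Drat lies below the line at 2.95 and 1.27.

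A direct test of the difference between the 2 effects called 35 of 18769 probe sets (0.186%), against 847 with an unadjusted p under 0.05, and 13 of the 975 genes were among them. Drat rose less with Pc/ph dsRNA present (by 1.27 in place of 2.95), and fbp changed by −0.27 in place of −1.91. The test did not call Drat when Pc/ph+PTIP replicate 2 or 3 was left out. The count of 35 probe sets was 16 without Pc/ph+PTIP replicate 2 and 9 without Pc/ph+PTIP replicate 3. It was 14 without PTIP replicate 2 or control replicate 2, and 20 without PTIP replicate 3.

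Cells that received dsRNA against other genes gave a further comparison. PTIP cells differed from Pc/ph cells at 1468 genes (12.3%), 671 higher (5.6%) and 797 lower (6.65%). Of 81 P450 genes 12 were lower in PTIP cells there and 3 higher. Of 35 UDP-glycosyltransferase genes 6 were lower and 0 higher, and of 35 glutathione transferase genes 10 were lower and 4 higher. Of 44 ribosome biogenesis genes 26 were higher and 0 lower. These counts share the PTIP arrays with the main comparison and are given beside it only. Utx differed from Pc/ph cells by −0.62 (adjusted p = 0.00249), Oat by −2.55 (adjusted p = 8.36e-06) and eater by −2.25 (adjusted p = 0.000365). Drat was higher, by 1.39 (adjusted p = 0.000374), and was itself 1.56 higher in Pc/ph cells than in controls.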

How the data were processed

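RNA of 12 arrays was measured on Affymetrix probe sets. The deposited values are log2 expression made by the authors with RMA, per the submitters' processing notes, which also name limma without versions. No further scaling was applied. After removal of 183 control probe sets, 18769 were tested: 13647 carry 1 gene symbol, 402 several and 4720 none, and names come from the platform annotation. Limma 3.58.1 in R 4.3.3 fitted 4 group means with replicate number as a block on all 12 arrays (6 residual and 4.08 prior degrees of freedom), two-sided, with Benjamini-Hochberg adjustment over all probe sets and a threshold of 0.05. The labels do not say what a replicate number marks. Same-numbered arrays correlated at 0.49 to 0.88 in all 18 pairs after removal of group means, and the differences between replicates 2 and 3 of PTIP and of control arrays correlated at 0.24. Differently numbered arrays of separate groups correlated at 0.40 to 0.78 among replicates 2 and 3. Named genes are the 15 largest changes each way with a name other than a bare CG or CR number and 1 sign in 3 pairs, Ptip, Pc, and up to 3 called members of each list per direction; further called members were added when lists were described in full. Members and lists were chosen with earlier results of these data known, and no set was tested for enrichment. Alternatives were other blocks, scalings, weights, filters and array subsets. The fit was tested on simulated data. Precision is limited by 3 arrays per group.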

Additional observations from a re-analysis of the deposited data

Results flagged for a closer look

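The effect of PTIP dsRNA differed between control and Pc/ph cells, by the interaction test in limma with Benjamini-Hochberg adjustment, for 35 probe sets. That count was 16 without Pc/ph+PTIP replicate 2 and 9 without Pc/ph+PTIP replicate 3. Drat was called in neither of those fits. The carbohydrate list, which holds fbp and Mal-A5, had 1 call without replicate 2 and 0 without replicate 3. Among named genes that were also called in PTIP against control, the effect in Pc/ph cells minus the effect in control cells was −1.68 for Drat (adjusted p = 0.0114), 1.64 for fbp (adjusted p = 0.0143), 1.19 for Mal-A5 (adjusted p = 0.0145), 1.15 for l(1)G0469 (adjusted p = 0.00807) and 0.83 for Mos (adjusted p = 0.0158).

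For fbp the fall of 1.91 in PTIP cells stood beside a difference of −0.27 in Pc/ph+PTIP against Pc/ph cells. Mal-A5 differed by −0.49 against control and by 0.70 in the second comparison, where it was called higher (adjusted p = 0.00592). For l(1)G0469 the values were −1.04 and 0.11, and for Mos −0.99 and −0.15. In Pc/ph against control cells these 4 genes differed by −1.53, −1.26, −0.99 and −1.0, and Drat by 1.56. The control arrays enter both of these comparisons. Pc was 1.59 higher in Pc/ph+PTIP than in Pc/ph cells (adjusted p = 0.00208), and its part in these differences was not tested.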

How the results depend on the processing

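With no replicate block, PTIP against control called 51 probe sets (14 higher, 37 lower) in place of 1224, PTIP in Pc/ph cells 56 in place of 1033, the difference of effects 1 in place of 35, and PTIP against Pc/ph 122 in place of 1815. Fitting 6 arrays alone with the replicate block gave 347 (116 and 231). Replicates 2 and 3 alone gave 2566 (1434 and 1132), 2925, 261 and 3494, and array weights 2295 (1134 and 1161), 4100, 144 and 4211. Quantile normalization gave 971 higher and median centring 238. A replicate block with 2 levels gave 53 for the difference of effects. With 1 array left out at a time the ranges were 475 to 1049 (147 to 566 higher, 327 to 678 lower), 333 to 1561, 9 to 41, and 959 to 1964, the 2 Pc/ph+PTIP arrays being left out as alternatives chosen after seeing the data. Of calls, 41.7% were higher, against 55.9% from replicates 2 and 3, 54.3% after quantile normalization, 54.0% without PTIP replicate 1, and 25.9% and 26.1% without PTIP replicate 2 and control replicate 3. Ptip missed the threshold under every alternative run. Pc reversed to 0.23 (replicates 2 and 3), 0.0027 (quantile), 0.098 (weights), 0.191 (without PTIP replicate 1) and 0.0791 (without control replicate 1), with −0.255 as the other end of its leave-one-out range. Of 116 named genes that were called, 17 were called without the block, 49 from 6 arrays, 94 after median centring, 68 to 91 with a PTIP or control array left out, and at least 110 under the other alternatives for this comparison. The cause of these shifts was not tested. None of the 975 called genes, where measured, changed sign in any alternative for PTIP against control. These genes were chosen by their calls in the same arrays. With no block, a block with 2 levels, 6 arrays, a variance trend or dim probe sets left out, the fitted difference is the same by design. Its sign could not change there. Carbohydrate, P450 and ribosome biogenesis counts (14, 12 and 15) were 0, 2 and 0 without the block, and 6, 6 and 0 from 6 arrays. The promoter motif count was not run, since no promoter sequences were at hand. Probe sets within the Y-linked range give only a bound.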
